A study of Felis catus with 15 samples.

Results

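Aquaporins are membrane channels that let water cross the cell membrane, and they are studied here in the corpus of the domestic cat (Felis catus) epididymis, the middle region of the duct in which sperm mature. The family members were taken by symbol: AQP1, AQP3, AQP4, AQP5, AQP7, AQP8, AQP9 and AQP11, all 8 of which are among the 38995 genes of the count table. RNA-seq was made from 15 libraries in 3 groups of 5: explants (tissue pieces) kept in culture with added extracellular vesicles from the caput, which lies upstream, explants cultured without vesicles, and fresh corpus tissue. The label codes carry D3 for both cultures and D0 for fresh tissue, but the sources used here do not give their meaning, the age of the cats or whether replicates are separate animals. The p-values therefore measure the spread between these libraries. The study asked what the vesicles change in gene expression of cultured corpus, and fresh tissue served as control.

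Water follows solute through aquaporins, and each channel is a pore in a membrane protein that assembles in groups. AQP1, AQP4, AQP5 and AQP8 belong to the water-selective branch of the family, whereas AQP3, AQP7 and AQP9 are aquaglyceroporins, which also pass glycerol and other small solutes. AQP11 is an unorthodox member that lies in membranes inside the cell. The epididymal duct reabsorbs fluid and so concentrates sperm. In rat, AQP9 lies on the apical membrane of principal cells, which line most of the duct, and AQP3 lies in the basal cells below them.

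Total counts ranged from 17308832 to 27420218 per library. Levels are given as CPM, edgeR counts-per-million after TMM scaling (trimmed mean of M values), and libraries are named by replicate number. CPM is not divided by gene length, so levels are compared between libraries and not between genes. Culture 3 stood apart, with 0.179% of its counts in the 13 mitochondrially encoded protein genes, against 6.23% to 7.48% in the other cultures, 6.40% to 7.26% in culture with vesicles and 8.69% to 11.4% in fresh tissue. Markers of principal cells were abundant in fresh tissue, where 9 of them summed to 17958 to 21928 CPM.

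Of the 8 aquaporins, AQP9, AQP1 and AQP11 were lower and AQP3 was higher in cultured than in fresh corpus, with vesicles and without. AQP7 and AQP8 did not pass the test, and AQP4 and AQP5 had too few counts to be tested. With vesicles against culture alone, 0 of the 6 tested aquaporins were called. Calls are by edgeR's quasi-likelihood test, 2-sided, with a threshold of 0.05 on the p adjusted by Benjamini-Hochberg over the 18038 genes tested. The background was high: 52.9% of all tested genes passed with vesicles against fresh tissue (27.4% higher, 25.5% lower) and 54.3% passed in culture against fresh tissue (28.7% higher, 25.6% lower). The 4 of 6 aquaporins called in each of these comparisons, and the called counts of every list below, are to be read against those shares. The median log2 fold change of the 6 was -1.58 with vesicles and -1.14 in culture, beside 0.01 and 0.04 over all genes. That median rests on its middle genes, AQP1 and the uncalled AQP8. Since AQP3 rose and AQP7 was not called, it does not describe a fall of the whole family. Both comparisons share the 5 fresh libraries.

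**Figure D1:**
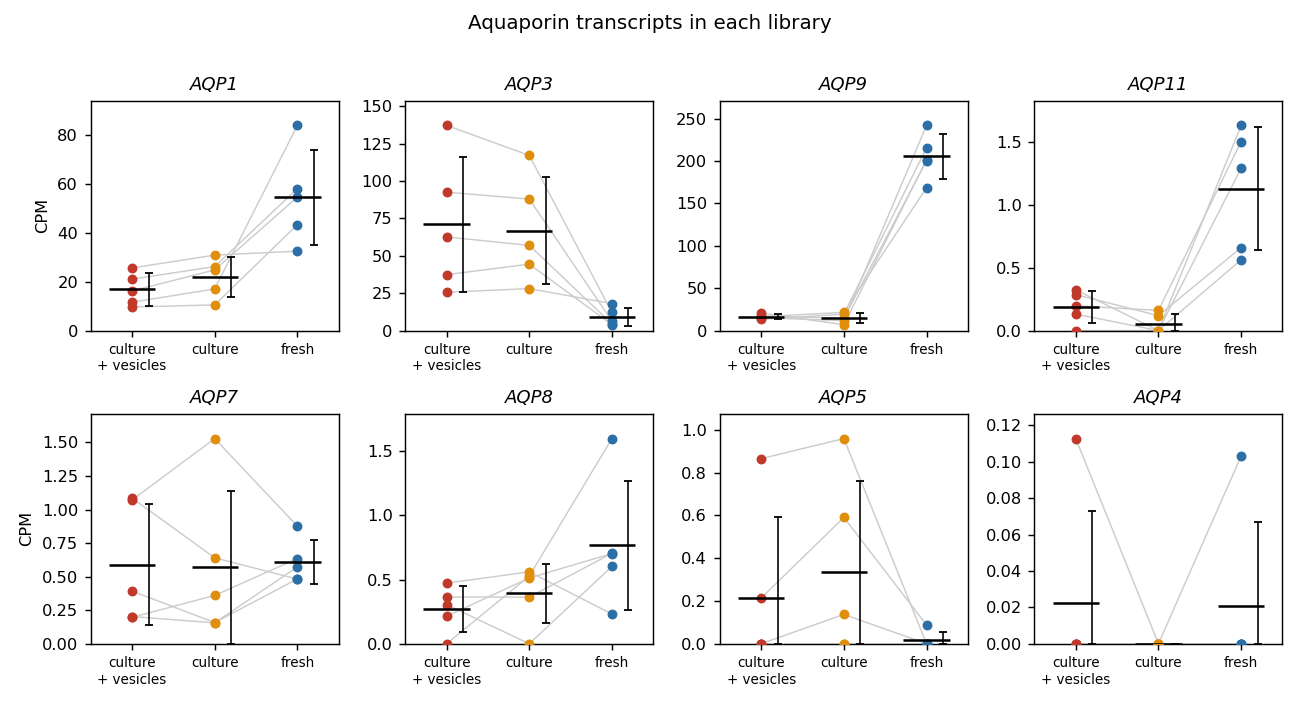
CPM (vertical axes, starting at 0) of the 8 aquaporins in each library, with culture with vesicles in red, culture in orange and fresh tissue in blue. Black bars are group means, error bars are 1 SD (n = 5, cut at 0) and grey lines join libraries of the same replicate number. AQP9 lies between 168 and 242 CPM in fresh tissue and at or below 21.5 CPM in all 10 cultured libraries, while AQP3 runs the other way.

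AQP9 (gene 101082662), the aquaglyceroporin known from principal cells, was about an order of magnitude lower in cultured tissue. Its level was 16.3, 16.9, 20.5, 13.3 and 15.3 CPM in culture with vesicles 1 to 5, against 21.5, 14.6, 7.01, 19.3 and 11.6 CPM in culture 1 to 5 and 168, 200.3, 201, 215 and 242 CPM in fresh tissue 1 to 5. Every fresh library was far above every cultured one, and the lowest cultured level was that of culture 3. AQP9 fell 12.5-fold with vesicles against fresh tissue (log2 fold change -3.64 ± 0.26, SE, with n = 5 in each group; edgeR adjusted p = 3.58e-08). Without vesicles it fell 13.8-fold against fresh tissue (-3.79 ± 0.26; edgeR adjusted p = 2.68e-08), and without culture 3 the value was -3.60. The 5 same-numbered differences were all negative in both comparisons. In these bulk tissue samples, fewer cells of a type and less RNA per cell cannot be told apart.

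Most of the other principal cell markers moved with AQP9. Of 8 fixed markers besides AQP9, 7 were tested: with vesicles 5 were lower and 1 higher than in fresh tissue, and in culture 6 were lower and 1 higher. Their summed level was 2156 to 3545 CPM with vesicles, 1014 to 3301 CPM in culture and 17742 to 21728 CPM in fresh tissue, lowest in culture 3. Beside these and the immune cell markers below, all tested genes had 27.4% higher and 25.5% lower with vesicles, and 28.7% and 25.6% in culture. SLC9A3, the marker not tested, had few counts in every group: 13 with vesicles, 0 in culture and 7 in fresh tissue. Markers that fell included MME, a membrane peptidase (log2 fold change -4.89 ± 0.39 with vesicles and -5.05 ± 0.39 in culture against fresh tissue), and NPC2, a secreted cholesterol-binding protein (-4.74 ± 0.25 and -4.68 ± 0.24). NPC2 and CRISP1 made up most of the summed level, with means of 10289 and 8401 CPM in fresh tissue. The marker that rose was the chloride channel CFTR (1.79 ± 0.20 and 1.51 ± 0.20). AQP9 is also known from neutrophils, of whose 5 tested markers 3 were higher and 1 lower with vesicles and 4 higher and 1 lower in culture. S100A8, which epithelia can also make, had 61148, 41019 and 6 counts with vesicles, in culture and in fresh tissue. The summed neutrophil level was 442 to 1345 CPM with vesicles and 296 to 1465 CPM in culture, against 4.90 to 9.12 CPM in fresh tissue. In the cultures nearly all of it was S100A8 (mean 501 CPM with vesicles and 362 CPM in culture) and S100A9 (365 and 373 CPM). CXCR2, another marker that rose, averaged 8.07, 5.41 and 0.506 CPM with vesicles, in culture and in fresh tissue. CAMP, the marker that fell, averaged 1.51, 2.04 and 5.79 CPM. The neutrophil receptor CSF3R had 0, 2 and 15 counts in the same groups. Macrophage markers had 3 of 7 tested genes higher and 1 lower with vesicles and 3 higher and 0 lower in culture, with a summed level of 61.7 to 118 CPM with vesicles, 68.9 to 156 CPM in culture and 31.8 to 63.2 CPM in fresh tissue, and MARCO was at 0 in all 3 groups. The part of these cell types in the AQP9 result was not tested.

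AQP3 (gene 101101676), an aquaglyceroporin that also passes hydrogen peroxide, was the only tested member to rise. Its level was 137, 25.6, 62.6, 92.6 and 37.4 CPM with vesicles, against 117, 28.1, 57.0, 88.0 and 44.4 CPM in culture and 12.1, 18.0, 4.49, 6.35 and 3.97 CPM in fresh tissue. The groups with and without vesicles covered the same range, and the lowest cultured library was still above the highest fresh one. AQP3 rose 7.89-fold with vesicles against fresh tissue (2.98 ± 0.55 on the log2 scale; edgeR adjusted p = 0.000314). In culture it rose 7.42-fold against fresh tissue (2.89 ± 0.55; edgeR adjusted p = 0.000386). The spread was wide in each group, with an SD of 63.4% of the mean with vesicles, 53.3% in culture and 66.7% in fresh tissue. Libraries 1 and 4 were the highest in both cultures and library 2 the lowest, whereas in fresh tissue library 2 was the highest.

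Basal cell markers rose as AQP3 did. All 6 tested of 7 listed markers were higher than in fresh tissue, both with vesicles and in culture, among them the hemidesmosome parts ITGB4 (2.09 ± 0.28 and 2.31 ± 0.28) and COL17A1 (2.87 ± 0.41 and 3.27 ± 0.42). Their summed level was 2204 to 5831 CPM with vesicles, 2545 to 6902 CPM in culture and 663 to 830.5 CPM in fresh tissue, with no marker at 0. The share called higher over all tested genes was 27.4% with vesicles and 28.7% in culture. Library 2 had the lowest sum in both cultures, as it had the lowest AQP3. With vesicles the highest sum and the highest AQP3 were in library 1, whereas in culture the highest sums were in libraries 3 and 5 and the highest AQP3 in libraries 1 and 4. The part of basal cells in the AQP3 result was not tested.

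AQP1 (gene 101087725), a water channel of endothelium, red blood cells and absorptive epithelia, fell in culture. Its level was 11.6, 16.2, 25.6, 9.64 and 21.0 CPM with vesicles, against 17.0, 24.8, 30.8, 10.5 and 26.1 CPM in culture and 83.8, 54.5, 32.4, 43.3 and 58.0 CPM in fresh tissue. The closest approach was between culture 3, the highest cultured library, and fresh 3, the lowest fresh one. The fall against fresh tissue was 3.24-fold with vesicles (-1.70 ± 0.33 on the log2 scale; edgeR adjusted p = 0.000538) and 2.49-fold in culture (-1.32 ± 0.33; edgeR adjusted p = 0.00329). Fresh 1 had the highest level, and without it the culture value was -1.11 (edgeR adjusted p = 0.0116).

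The endothelial markers that were called went the other way from AQP1. Of 10 tested markers, 5 were higher and 0 lower than in fresh tissue, both with vesicles and in culture, including the junction protein CDH5 (2.46 ± 0.38 with vesicles and 2.41 ± 0.38 in culture). The summed endothelial level was 383 to 837 CPM with vesicles, 476 to 673 CPM in culture and 267 to 356 CPM in fresh tissue, and no marker was at 0. PECAM1 was the largest part of it, with means of 345, 299 and 164 CPM in the same order. Of the endothelial markers not called, EMCN was at -0.45 with vesicles and -0.76 in culture, and VWF at -0.06 and 0.21. The part of endothelial cells in the AQP1 result was not tested. Smooth muscle markers had 3 of 8 higher and 0 lower in each comparison with fresh tissue. Over all tested genes 27.4% were called higher and 25.5% lower with vesicles, and 28.7% higher and 25.6% lower in culture.

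**Figure D2:**
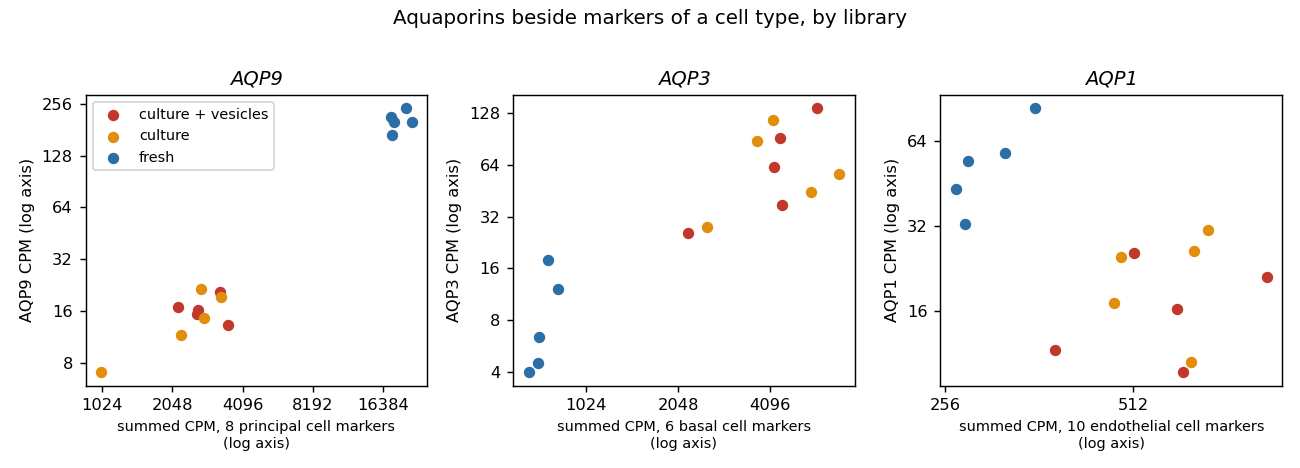
CPM of AQP9, AQP3 and AQP1 (vertical log axes) against the summed CPM of fixed markers of principal, basal and endothelial cells (horizontal log axes), 1 point per library, with culture with vesicles in red, culture in orange and fresh tissue in blue. The cultured libraries have less AQP9 with a lower principal cell sum and more AQP3 with a higher basal cell sum, but less AQP1 with a higher endothelial sum (383 CPM or more, against 356 CPM or less in fresh tissue).

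AQP11 (gene 101086748), the intracellular member, had few counts in all groups and fell in culture. It had 8, 3, 8, 5 and 0 counts with vesicles, 3, 0, 0, 4 and 0 counts in culture and 15, 14, 37, 26 and 25 counts in fresh tissue. That is 0.187 ± 0.129 CPM with vesicles, 0.0556 ± 0.0776 CPM in culture and 1.13 ± 0.489 CPM in fresh tissue (SD, n = 5 each), and every fresh library was above every cultured one. The fall against fresh tissue was 5.69-fold with vesicles (log2 -2.51 ± 0.73; edgeR adjusted p = 0.00922). In culture it was 17.1-fold (-4.10 ± 0.83; edgeR adjusted p = 0.000707), a value that rests on 7 culture counts in all and was -4.85 without culture 4. Sperm and late germ cell markers also fell, 6 of 6 tested in each comparison with fresh tissue. Their summed level was 5.04 to 9.06 CPM with vesicles, 5.19 to 10.6 CPM in culture, where CAPZA3 and AKAP4 were at 0, and 34.3 to 79.9 CPM in fresh tissue. The share called lower over all tested genes was 25.5% with vesicles and 25.6% in culture. AQP11 is known from testis in mouse and rat, and the part of sperm RNA in its fall was not tested.

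AQP7 (gene 101101423), the aquaglyceroporin that releases glycerol from fat cells and is also found in sperm, had 11, 25, 5, 5 and 19 counts with vesicles, 4, 14, 3, 9 and 29 in culture and 11, 12, 13, 11 and 17 in fresh tissue. The groups overlapped, and the cultured libraries were the more scattered. The difference from fresh tissue was -0.06 ± 0.65 on the log2 scale with vesicles and -0.11 ± 0.65 in culture (edgeR adjusted p = 0.946 and 0.899). The 95% intervals of this fit, 0.369- to 2.49-fold and 0.355- to 2.42-fold, leave room for a change of over 2-fold either way. With the replicate number as a block, the log2 intervals were -1.44 to 0.75 with vesicles and -1.63 to 0.59 in culture. AQP7 is next to AQP3 in the RefSeq gene table, and library 5 and library 2 were its highest in both cultures, while libraries 1 and 4 were the highest for AQP3. Fat cell markers had 1 of 4 tested genes higher with vesicles (FABP4) and 0 called in culture, and ADIPOQ had 8, 10 and 19 counts with vesicles, in culture and in fresh tissue.

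AQP8 (gene 101087700), a channel for water and hydrogen peroxide, had 6, 7, 9, 12 and 0 counts with vesicles, 13, 0, 7, 14 and 10 in culture and 16, 15, 16, 4 and 31 in fresh tissue. Fresh 4 lay inside the cultured range, so the groups overlapped. The difference from fresh tissue was -1.46 ± 0.76 with vesicles and -0.95 ± 0.74 in culture (log2 ± SE; edgeR adjusted p = 0.118 and 0.291). In the RefSeq gene table AQP8 overlaps ZKSCAN2, and the strand setting of the counts is not given, so reads in the overlap may not have been told apart. ZKSCAN2 was -1.39 ± 0.51 with vesicles and -1.17 ± 0.51 in culture against fresh tissue (edgeR adjusted p = 0.0329 and 0.0656).

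AQP5 (gene 101093196), a water channel of secretory glands, was close to the limit of detection. It had 6, 0, 0, 22 and 0 counts with vesicles, 15, 3, 0, 24 and 0 counts in culture, and 2, 0, 0, 0 and 0 counts in fresh tissue. Nearly all counts were in libraries 1 and 4. The ratio of scaled counts to fresh tissue was 12.6 with vesicles (95% exact binomial interval 3.18 to 109) and 20.4 in culture (5.30 to 174), intervals that cover counting error only. In the fit with no count filter the AQP5 differences were 3.27 ± 1.65 and 3.90 ± 1.66 on the log2 scale (edgeR adjusted p = 0.137 and 0.0777). AQP4 (gene 101081006), the main water channel of brain and muscle, had 2 counts in culture with vesicles 5, 2 in fresh 5 and 0 in each of the other 13 libraries, so no level can be compared. Of muscle markers, 1 of 2 tested was higher and 1 lower in each comparison with fresh tissue, and of nerve and glia markers 0 of 5 tested were higher and 1 lower.

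Overlapping genes in the RefSeq table had few counts at the other members. LOC109493842, a long noncoding RNA that overlaps both AQP3 and AQP7, had 11, 13 and 8 counts in all with vesicles, in culture and in fresh tissue. The pseudogene that overlaps AQP9 had 0, 1 and 4 counts in the same order. LOC109491950, which overlaps AQP11, had 119, 70 and 52 counts and went the other way from AQP11, at 1.06 ± 0.42 with vesicles and 0.35 ± 0.42 in culture against fresh tissue (log2 ± SE; edgeR adjusted p = 0.0435 and 0.495).

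The relation between AQP3 and AQP9 within a library does not depend on scaling between libraries. The number of AQP3 counts per AQP9 count was 8.44, 1.51, 3.06, 6.98 and 2.45 with vesicles, against 5.45, 1.92, 8.13, 4.55 and 3.81 in culture and 0.0719, 0.0900, 0.0223, 0.0295 and 0.0164 in fresh tissue. AQP3 thus had more counts than AQP9 in all 10 cultured libraries and fewer in all 5 fresh ones. The ratio itself carries the lengths of both genes, and its shift between groups does not. On the log2 scale it averaged 1.88 ± 1.04 with vesicles, 2.11 ± 0.77 in culture and -4.75 ± 1.07 in fresh tissue (SD, n = 5 each). Culture 3, with the lowest AQP9 level, had the highest ratio in culture, and library 2 had the lowest ratio in both cultures and the highest in fresh tissue.

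**Figure D3:**
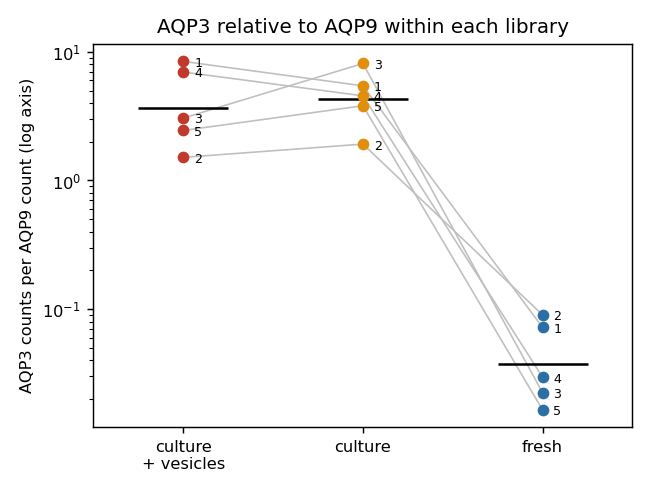
AQP3 counts per AQP9 count in each library (vertical log axis) in culture with vesicles, culture and fresh tissue. Points carry the replicate number, grey lines join libraries of the same number, and black bars are the geometric group means. All 10 cultured libraries are at 1.51 or above and the 5 fresh ones at 0.0900 or below.

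Culture with caput vesicles against culture alone bears on the stated question. Among the 6 tested aquaporins, the log2 differences were -0.38 ± 0.33 for AQP1, 0.09 ± 0.50 for AQP3, 0.05 ± 0.65 for AQP7, -0.50 ± 0.77 for AQP8, 0.15 ± 0.23 for AQP9 and 1.59 ± 0.86 for AQP11 (± SE, n = 5 per group). Their edgeR adjusted p was 1.00 in each case, and 0 of the 6 had an unadjusted p under 0.05. Over all 18038 genes 0 were called (0.00%), with 183 at an unadjusted p under 0.05. DESeq2 and limma-voom also called 0 genes, with 269 and 237 at an unadjusted p under 0.05. Each count is a smaller share than the 0.05 of genes that chance alone would give. The tests thus ran cautious here, and the main fit ignores the replicate number. With that number as a block, the log2 differences were -0.37 ± 0.29 for AQP1 and 0.03 ± 0.43 for AQP3. They were 0.17 ± 0.50 for AQP7 and -0.35 ± 0.84 for AQP8. For AQP9 and AQP11 they were 0.19 ± 0.26 and 1.63 ± 0.88, and the 6 edgeR adjusted p were between 0.967 and 0.994.

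A missed threshold does not show that vesicles left these transcripts as they were. The 95% intervals give the sizes that the fit with group as the only term allows. They were narrowest for AQP9, from 0.785- to 1.56-fold. For AQP1 the interval ran from 0.476- to 1.24-fold and for AQP3 from 0.505- to 2.24-fold. For AQP11 it ran from 0.839- to 10.7-fold, on 24 counts with vesicles and 7 in culture. Without culture 4 the AQP11 difference was 2.33, and without culture 5 the AQP7 difference was 0.81, both on the log2 scale and not called. AQP1 was lower with vesicles in all 5 same-numbered pairs. Its difference was smaller than the spread between libraries of either group, but that spread does not measure how the pair differences vary. With the replicate number as a block, the AQP1 difference was -0.37 ± 0.29 on the log2 scale and was not called (edgeR adjusted p = 0.967). AQP11 was higher in 4 pairs, and in the pair of libraries 5 both were at 0 counts.

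**Figure D4:**
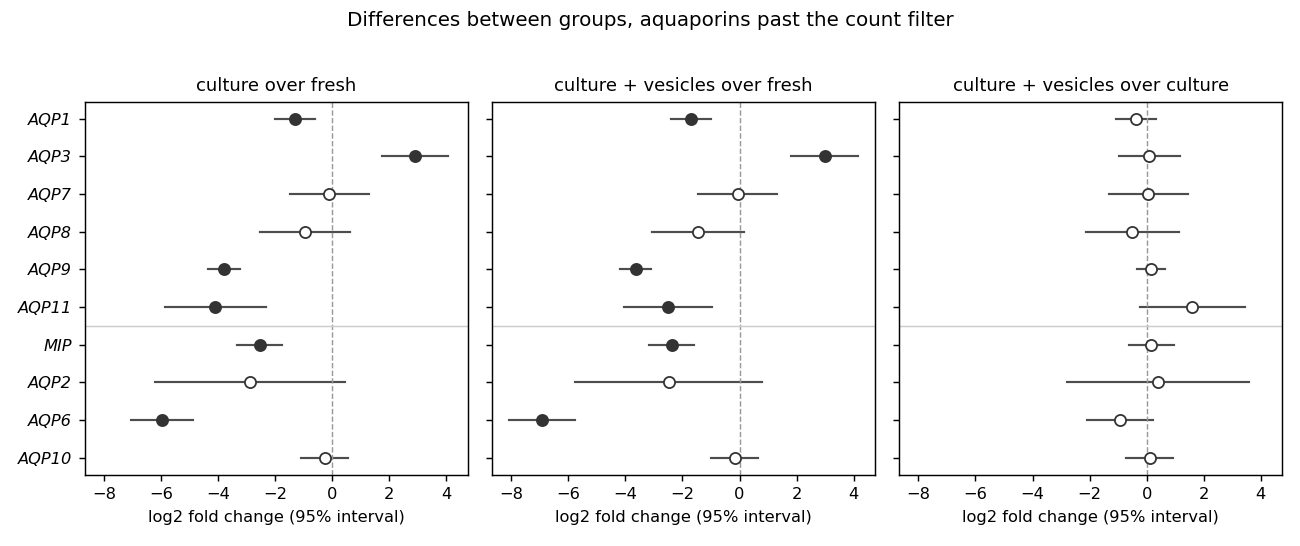
Log2 fold change (horizontal axis) with its 95% interval for 10 aquaporins past the count filter, in culture over fresh tissue, culture with vesicles over fresh tissue and culture with vesicles over culture. Filled points passed an edgeR adjusted p under 0.05 and open points did not. The line separates the listed members, above, from the other family genes, below. All points of the third panel are open.

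The family genes outside the list were MIP (also called AQP0), AQP2, AQP6 and AQP10, while AQP12A and AQP12B had no match by symbol. AQP6 and MIP were called lower in both comparisons with fresh tissue, and AQP2 and AQP10 were not called. AQP6 (gene 101093446), which in rat kidney lies in vesicles inside acid-secreting cells, had 0.321, 0.174, 0.202, 0 and 0.394 CPM with vesicles, against 0.709, 0.503, 0.104, 0.440 and 0.264 CPM in culture and 28.5, 33.5, 22.0, 26.0 and 21.2 CPM in fresh tissue. No cultured library came near the fresh range. The fall against fresh tissue was 120.1-fold with vesicles (log2 -6.91 ± 0.54; edgeR adjusted p = 9.67e-08) and 62.8-fold in culture (-5.97 ± 0.51; edgeR adjusted p = 2.18e-07). With vesicles against culture AQP6 was -0.94 ± 0.54 (edgeR adjusted p = 1.00). Clear cells, the acid-secreting cells of the duct, had 1 of 7 markers higher and 2 lower with vesicles and 1 higher and 3 lower in culture. Beside these markers and the family genes outside the list, all tested genes had 27.4% higher and 25.5% lower with vesicles, and 28.7% and 25.6% in culture. Summed, the clear cell markers were at 62.8 to 114 CPM with vesicles, 49.5 to 124 CPM in culture and 221 to 424 CPM in fresh tissue. Most of the fresh sum was 1 marker, ATP6V1C2, which averaged 330 CPM there, against 47.0 CPM with vesicles and 49.6 CPM in culture. The marker that rose was CA2, at 31.5 CPM with vesicles, 27.0 CPM in culture and 1.26 CPM in fresh tissue. The part of clear cells in the AQP6 result was not tested, and their regulator FOXI1 was not called (-0.07 with vesicles and 0.01 in culture).

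MIP (gene 101099733), best known as the channel of the eye lens, averaged 0.702 ± 0.301 CPM with vesicles, 0.626 ± 0.274 CPM in culture and 3.65 ± 1.08 CPM in fresh tissue (SD, n = 5 each). It fell 5.20-fold with vesicles (-2.38 ± 0.37; edgeR adjusted p = 6.56e-05) and 5.82-fold in culture (-2.54 ± 0.37; edgeR adjusted p = 3.87e-05) against fresh tissue. AQP10 (gene 101097543), an aquaglyceroporin of the intestine, averaged 0.914 ± 0.377, 0.854 ± 0.205 and 1.02 ± 0.469 CPM in the same groups. Its differences from fresh tissue were -0.17 ± 0.39 with vesicles and -0.27 ± 0.39 in culture (edgeR adjusted p = 0.746 and 0.579).

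AQP2 (gene 101092948), the vasopressin-regulated channel of kidney collecting duct, had an SD of 101% of its mean in fresh tissue, the largest there of the 10 tested aquaporins. It had 93, 0, 0, 240 and 0 counts with vesicles, 90, 5, 0, 148 and 0 counts in culture and 616, 198, 89, 574 and 7 counts in fresh tissue. Libraries 1 and 4 were the highest in all 3 groups, and libraries 5 the lowest or at 0. Each cultured library was below the fresh library of its own number. Without regard to number the difference from fresh tissue was -2.49 ± 1.54 with vesicles and -2.88 ± 1.57 in culture (edgeR adjusted p = 0.188 and 0.133). With the replicate number as a block, the difference with vesicles was -4.00 ± 0.78 (edgeR adjusted p = 0.000996). AVPR2, the kidney receptor for vasopressin, had 29, 33 and 24 counts in all with vesicles, in culture and in fresh tissue and was below the count filter.

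**Figure D5:**
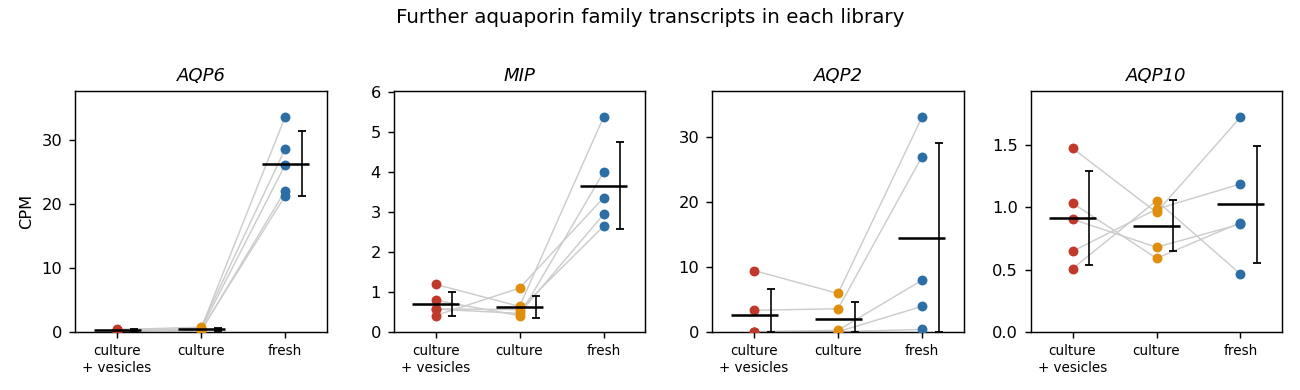
CPM (vertical axes, starting at 0) of AQP6, MIP, AQP2 and AQP10 in each library, with culture with vesicles in red, culture in orange and fresh tissue in blue. Black bars are group means, error bars are 1 SD (n = 5, cut at 0) and grey lines join libraries of the same number. AQP6 is at 0.709 CPM or less in all cultured libraries and at 21.2 CPM or more in fresh tissue, while for AQP2 the groups overlap but every same-numbered line goes up to fresh tissue.

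AQP2, AQP5 and AQP6 are neighbours in the RefSeq gene table, and their counts took separate courses. AQP2 and AQP5 were highest in libraries 1 and 4, where AQP5 was counted in culture and nearly absent in fresh tissue while AQP2 was highest in fresh tissue. AQP6 was at like levels in all 5 fresh libraries, with an SD of 19.2% of its mean. After group means were removed, log2 CPM of AQP3 and AQP2 had a Pearson correlation of 0.71 over the 15 libraries, AQP3 and AQP7 one of -0.63, AQP1 and AQP2 one of -0.65 and AQP9 and AQP6 one of 0.63. These correlations describe libraries that share replicate numbers and depth, and they were picked as the largest in size of 45 pairs.

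The genes whose levels were most like each member's were taken from 12364 genes with a symbol, by Pearson correlation of log2 CPM over the 15 libraries, and the group differences enter this measure. For AQP9 they were RASGRF2 (0.997), DNAJC10 (0.995), a disulfide reductase of the endoplasmic reticulum, and the beta-defensin DEFB112 (0.989). For AQP3 they were the growth factor receptors FGFR2 (0.984) and EGFR (0.973), followed by FAM189A1 (0.971). With group means removed, the correlation of AQP3 with FGFR2 was 0.946 and that of AQP9 with RASGRF2 was 0.928. For AQP1 they were the lipid kinase PIP4K2A (0.934), the calcium pump ATP2A3 (0.930) and the respiratory chain subunit COX7A1 (0.913). For AQP11 they were ZSWIM5 (0.956), PEX5L (0.949) and LACC1 (0.944). The values were lower for AQP7, with DLGAP1 (0.872), DTX3L (0.821) and the chemokine CXCL10 (0.810), and for AQP8, with NDUFAF6 (0.768), HIC2 (0.745) and ZNF510 (0.745). AQP7 and AQP8 had 31 counts or fewer in every library. All these genes were picked as the largest of 12364 values, and how large the top values would be by chance was not tested.

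Genes of sodium and chloride transport, which set the salt gradients for water movement, went both ways. Of 14 tested of 16 listed genes, 8 were higher and 2 lower with vesicles and 7 higher and 2 lower in culture against fresh tissue (median log2 fold change 0.95 and 0.89, beside 0.01 and 0.04 over all genes). The sodium pump subunit ATP1B1 rose by 1.55 ± 0.18 with vesicles and 1.48 ± 0.18 in culture, and its regulator FXYD3 by 3.09 ± 0.40 and 2.90 ± 0.40. The sodium-proton exchanger SLC9A2 fell (-5.78 ± 0.28 and -5.96 ± 0.28). These 3 genes had an edgeR adjusted p of 2.05e-05 or less. The other gene called lower was SCNN1A, a subunit of the epithelial sodium channel (-1.48 ± 0.36 and -1.38 ± 0.36; edgeR adjusted p = 0.00294 and 0.00451). Over all tested genes 27.4% were called higher and 25.5% lower with vesicles, and 28.7% higher and 25.6% lower in culture.

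Osmotic stress and cell volume genes went both ways, with 7 of 18 higher and 4 lower in both comparisons with fresh tissue (median 0.04 with vesicles and -0.11 in culture). The shares over all tested genes were 27.4% higher and 25.5% lower with vesicles, and 28.7% and 25.6% in culture. The volume-regulated anion channel parts LRRC8A (1.77 ± 0.17 and 1.79 ± 0.17), LRRC8D (2.07 ± 0.23 and 1.95 ± 0.23) and LRRC8C (2.43 ± 0.43 and 2.20 ± 0.43) rose, while 2 further parts of that channel fell, LRRC8B (-1.07 ± 0.30 and -1.25 ± 0.30) and LRRC8E (-0.93 ± 0.20 and -0.79 ± 0.20). The betaine transporter SLC6A12 also fell (-4.15 ± 0.87 and -5.27 ± 0.94). NFAT5, the transcription factor of the osmotic response, was at 0.06 with vesicles and -0.14 in culture and was not called.

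Glycerol and urea genes, which handle the other cargo of the aquaglyceroporins, had 4 of 14 higher and 3 lower in both comparisons (median 0.28 with vesicles and 0.16 in culture). All tested genes had 27.4% higher and 25.5% lower with vesicles, and 28.7% and 25.6% in culture. The urea-forming enzyme ARG2 rose by 4.42 ± 0.28 with vesicles and by 4.35 ± 0.28 in culture, while its relative ARG1 fell (-1.73 ± 0.28 and -1.50 ± 0.28). The phosphatidate phosphatase LPIN1 rose (2.79 ± 0.30 and 2.69 ± 0.30) and GPD1L, an enzyme of glycerol phosphate, fell (-1.24 ± 0.18 and -1.28 ± 0.18).

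Hydrogen peroxide, which AQP3 and AQP8 pass, is made by oxidases and superoxide dismutases, of which 3 of 10 tested genes were higher and 4 lower with vesicles and 2 higher and 4 lower in culture (median 0.45 and 0.57). DUOXA1, the maturation factor of the dual oxidase DUOX1, fell (-2.70 ± 0.27 and -2.77 ± 0.28), as did DUOX1 itself (-0.88 ± 0.25 and -0.94 ± 0.25). The related oxidase DUOX2 rose (4.36-fold with vesicles and 4.92-fold in culture; edgeR adjusted p = 0.0256 and 0.0170), as did the mitochondrial dismutase SOD2 (log2 fold change 1.80 ± 0.47 and 1.32 ± 0.46). The oxidase NOX4 rose with vesicles (1.55 ± 0.51) and was not called in culture (1.19 ± 0.51). Of 15 tested genes for the anchoring and traffic of aquaporins, 5 were higher and 3 lower with vesicles and 3 higher and 3 lower in culture (median 0.22 and 0.21). Beside both the peroxide and the anchoring list, all tested genes had 27.4% higher and 25.5% lower with vesicles, and 28.7% and 25.6% in culture. The actin linker MSN rose (2.89 ± 0.20 and 3.03 ± 0.20), and the vesicle fusion proteins STX3 (-1.97 ± 0.19 and -2.01 ± 0.19) and VAMP2 (-1.29 ± 0.11 and -1.12 ± 0.11) fell. In all 5 of these lists 0 genes were called with vesicles against culture.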

How the data were processed

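The authors deposited raw counts per gene, whole numbers for 38995 genes in 15 libraries. Libraries came from a TruSeq Stranded mRNA kit after Qiagen RNA extraction, per the labels' protocols. Bowtie2 2.3.4.1, HISAT2 2.1.0, StringTie 2.1.3b and Trimmomatic 0.38 appear in the submitters' processing notes, which do not say what each did. The sources used here do not give the genome build, annotation, counting program, strand setting or handling of reads that match several genes, so counts of similar family members may be split.

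All 38995 gene identifiers matched a RefSeq gene table (assembly F.catus_Fca126_mat1.0), used for names and neighbours only. NHERF1 was matched as SLC9A3R1. No sequence or gene length was used. No 2 libraries held identical values. Genes passing edgeR's filterByExpr (minimum count 10, minimum total 15; 18038 genes, 6 of the 8 members) were TMM-scaled and tested in edgeR 4.0.16 (R 4.3.3), with all 15 libraries and group as the only term (12 residual degrees of freedom). Standard errors were obtained as |log2 fold change| over the root of edgeR's F. Log2 CPM used a prior count of 2. The fit was tested on simulated data, but the outcome is not given here, so no assurance is drawn from it.

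Members and gene lists were chosen with earlier results of these data known. Named were all 8 members, the up to 4 called genes of smallest p of a pathway list, at most 3 of a marker list, and the 3 genes most alike in pattern (mean log2 CPM of 1 or more). Family genes outside the list were all named. The result of 1 marker list is not reported here. CFTR as a principal cell marker, CRISP1, CAMP, EMCN, VWF, PECAM1, FOXI1, NFAT5, AVPR2, CSF3R, SCNN1A, LRRC8B, LRRC8E, DUOX2, SOD2, NOX4, FABP4, ADIPOQ, the markers at 0 and overlapping genes were named after their values were seen.

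Replicate numbers were checked through the correlation of same-numbered libraries' deviations from their group means. It was 0.18 to 0.60 for culture with vesicles and culture, and 0.24 to 0.36 for culture with vesicles and fresh tissue, so the numbers were taken to pair those libraries. It was 0.033 to 0.34 for culture and fresh tissue. Alternatives were DESeq2 1.42.0, limma-voom (limma 3.58.1) with sample weights, 2 scalings, 2 filters, the replicate block, fits of 2 groups and leaving out each library.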

Additional observations from a re-analysis of the deposited data

Results flagged for a closer look

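On the log scale, AQP8 in culture 2 stood apart from the other libraries of its group. It had 0 counts, which is -3.49 log2 CPM, against -1.14 log2 CPM in the next lowest culture and -0.62 in the highest. That lowest log value is set by the prior count of 2. In CPM, which was not tested this way, culture 2 was at 0, the next lowest culture at 0.363 and the highest at 0.560. On the log scale the gap was 81.8% of the group's range, past Dixon's limit for 5 values. This was 1 of 30 groups tested this way for the 10 aquaporins past the count filter, and chance marks about 1 in 20. Without culture 2, the log2 fold change of AQP8 was -0.63 in culture against fresh tissue and was not called.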

How the results depend on the processing

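The calls of the same 4 members in each comparison with fresh tissue, and of 0 members with vesicles against culture (where the fit of only 2 groups tested 3 members), stayed the same with DESeq2, limma-voom, 2 other scalings, no filter, the replicate block, fits of only 2 groups and without any 1 of the 15 libraries. With a filter of at least 1 CPM in 5 libraries the count was 3, since AQP11 was not tested. Leaving out 1 library gave 4 members in both comparisons with fresh tissue and 0 with vesicles against culture in each case. Of 676 values of single aquaporins under an alternative, 674 kept their direction, if called, and their side of the threshold. The other 2 were those of AQP2 against fresh tissue with the replicate block, -4.08 in culture (adjusted p = 0.000872) and -4.00 with vesicles (adjusted p = 0.000996). The block changed no other call of an aquaporin. AQP2 also moved most when 1 library was left out, to -3.89 in culture without culture 4 and to -4.07 with vesicles without the library with vesicles 4. AQP7 in culture was -0.88 without culture 5. With vesicles against culture, AQP2 (0.39) was not called and was -1.18 without the library with vesicles 4, 1.39 without culture 4 and -2.70 with limma-voom. Upper-quartile scaling moved the median log2 fold change of all genes with vesicles against fresh tissue to -0.09, against 0.01 with TMM. Depth limits AQP4, AQP5, AQP7, AQP8 and AQP11, which had 0 to 37 counts in a library.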
